A study of Mus musculus with 18 samples.

Results

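Levels of 10 genes of the elastic fibre and its microfibril scaffold were followed through 18 bulk RNA-seq libraries of mouse 10T1/2 cells, a multipotent fibroblast line (CH310T1/2 in the labels). The 10 genes were *Eln*, *Fbn1*, *Fbn2*, *Fbln1*, *Fbln2*, *Fbln5*, *Efemp2*, *Mfap4*, *Mfap5* and *Emilin1*, taken by gene name from a table of 54532 genes. All 10 were among the 14317 genes with enough reads to be tested. The libraries fell into 6 groups of 3. They came from wild-type cells (WT) and from clones 1 and 2 of cells in which CRISPR-Cas9 had been directed at *Foxs1*, a gene for a forkhead transcription factor (FOXS1 KO clone 1 and clone 2). Each was either uninduced (the label is control) or stimulated with TGF-β1 at 1 nM for 12 h and then with DMII for 48 h. DMII, which starts fat cell differentiation, mixes insulin with dexamethasone, indomethacin and 3-isobutyl-1-methylxanthine. The comparison of stimulated with uninduced cells therefore holds the growth factor and the mixture together, and their parts cannot be told apart.

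Elastic fibres give tissues recoil. They consist of a core of crosslinked elastin laid down on a bundle of microfibrils, whose backbone is made of fibrillins. Fibulins, the microfibril-associated proteins and emilins bind to the core, to the fibrillins or to both, and several of them are required for elastin to be deposited and crosslinked by lysyl oxidases. Fibroblasts and smooth muscle cells make most of these proteins, and microfibrils also bind latent TGF-β, the growth factor used here.

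The libraries held 15576685 to 42005596 counts, and pairs of replicates correlated at 0.963 to 0.993 (Pearson, across genes), with the WT uninduced libraries least alike. Levels are given as CPM, the share of a library's counts on the usual CPM scale after TMM scaling. The targeted gene *Foxs1* had 2.23 ± 0.886 CPM (SD, n = 3) in WT uninduced and 2.51 ± 0.641 CPM in WT stimulated libraries. In the libraries labelled KO clone 1 it had 25.7 ± 2.04 CPM uninduced and 54.5 ± 2.06 CPM stimulated, and in those labelled KO clone 2 22.6 ± 1.44 CPM and 39.9 ± 2.59 CPM. Transcript of the targeted gene was thus higher, not lower, in the knockout libraries. A gene total cannot show an edit inside an exon. In the study's methods the clones were accepted on sequence of the edited locus and on absence of the FOXS1 protein, neither of which was analysed here. Every direction given below depends on the genotype labels. Each knockout is 1 single-cell derived clone, so a difference from WT holds the edit and whatever else set that clone apart, and both clones are compared with the same WT libraries. Nothing in the sources used here says that replicates were separate cultures, so p-values measure the spread between these libraries, which may be technical. All 10 markers of mesenchymal fibroblasts reached a mean of 1 CPM in every WT and clone 1 group, and 9 of 10 in both clone 2 groups. In clone 2 *Thy1* had 0.616 ± 0.258 CPM uninduced and 0.342 ± 0.192 CPM stimulated. Their levels were not equal. Against WT uninduced, the log2 difference of *Thy1* was 1.63 in clone 1 and -6.62 in clone 2. That of *Pdgfra* was -1.60 and -1.26, and the other markers lay from -0.85 to 0.66.

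Elastin, fibrillin-2, fibulin-1 and both microfibril-associated genes were called lower in both FOXS1 KO clones than in WT after TGF-β1 + DMII, while fibulin-2, fibulin-5 and emilin-1 were not called in either clone. In the uninduced state 1 gene, *Mfap4*, was called lower in both clones. Among the 14317 genes tested, 826 were called lower in both clones under stimulation and 828 in the uninduced state. Called higher in both were 753 and 470, with none of the 10 genes among them. A gene was called when its adjusted p was below 0.05 and its absolute log2 fold change above 1 (quasi-likelihood F test in edgeR, Benjamini-Hochberg over all genes tested). Under stimulation 5 of the 10 genes were called lower in clone 1 and 7 of 10 in clone 2, and none was called higher. Of all genes tested, 9.6% were called lower and 9.42% higher in clone 1, and 8.94% and 7.95% in clone 2. The median log2 difference was -1.18 over the 10 genes and -0.0151 over all genes tested in clone 1, and -1.68 over the 10 genes and -0.00966 over all genes tested in clone 2. Without induction 1 of 10 was called lower in clone 1 and 5 of 10 in clone 2, again with none higher. The background was 8.73% lower and 6.32% higher in clone 1, and 9.56% and 5.54% in clone 2. In bulk libraries fewer cells that express a gene and less RNA per cell cannot be told apart.

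**Figure D1:**
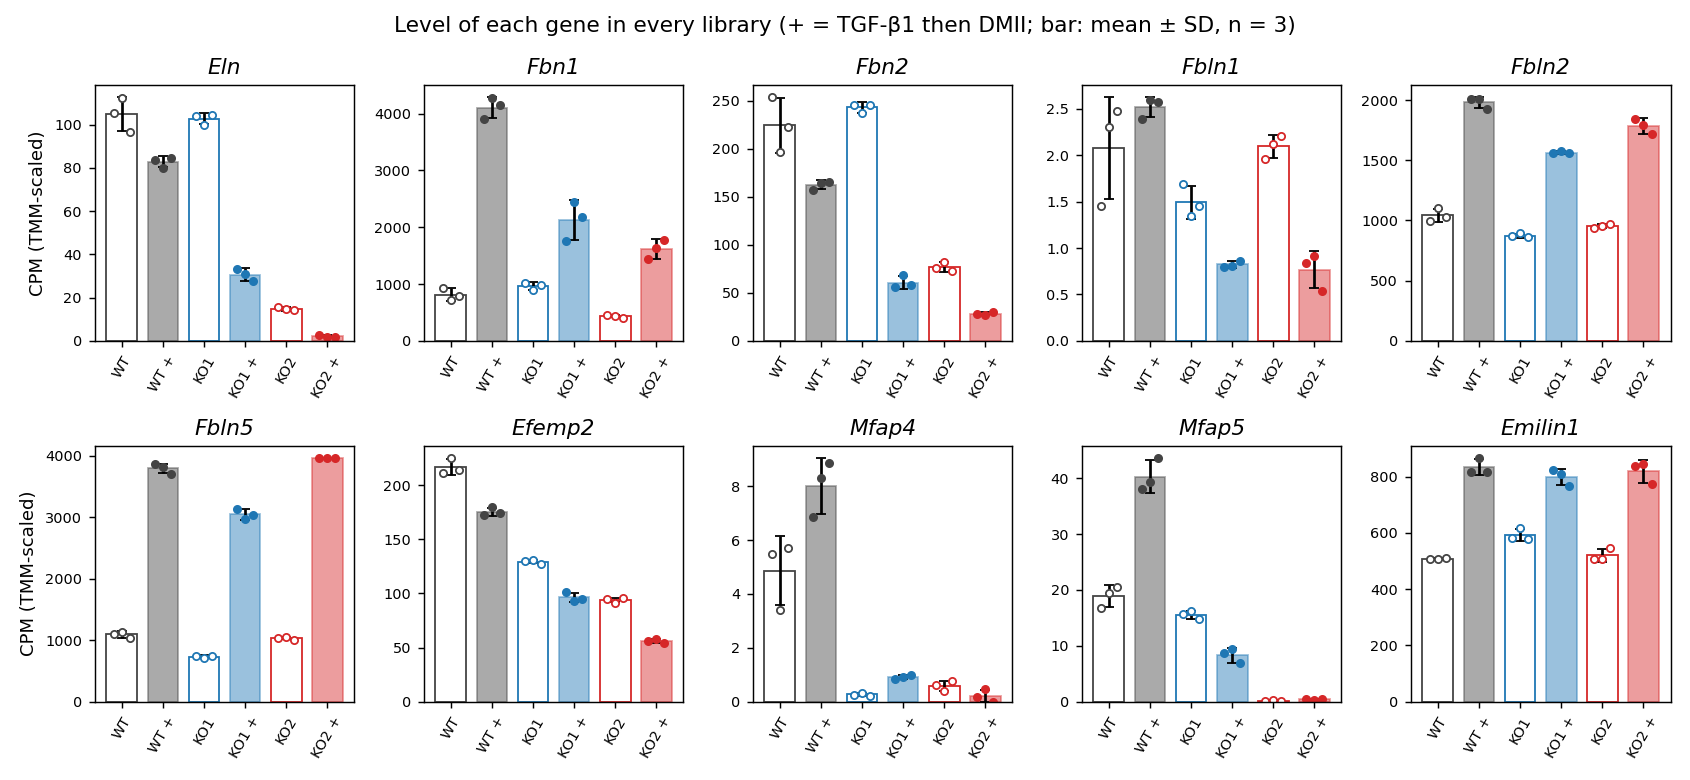
CPM after TMM scaling for each of the 10 genes (y axis, linear and from 0, own scale per panel) in the 6 groups (x axis, + marks TGF-β1 + DMII), with points for libraries and bars for the mean ± SD of 3. *Eln* stood at 105 CPM in WT uninduced libraries and at 2.09 CPM in clone 2 stimulated libraries, while *Fbln5* stood at 3044 to 3961 CPM in the stimulated groups.

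*Eln* (ENSMUSG00000029675, chromosome 5 from 134702593 to 134747323, minus strand of GRCm38) encodes tropoelastin, the soluble subunit from which the elastic core is built. WT uninduced libraries held 105, 112 and 96.6 CPM and clone 1 uninduced libraries 104, 99.9 and 104 CPM, which overlapped. Clone 2 already differed at this point, with 15.7, 14.5 and 14 CPM. Stimulated WT libraries had 83.7, 80.03 and 84.7 CPM, stimulated clone 1 libraries 33.3, 31 and 27.4 CPM and stimulated clone 2 libraries 2.58, 1.9 and 1.8 CPM. The 3 stimulated groups did not overlap, and clone 2 lay lowest in both states. Against WT, stimulated *Eln* was 2.71-fold lower in clone 1, with a log2 fold change of -1.44 (SE 0.0744, adjusted p = 1.9e-16), and 39.2-fold lower in clone 2, at -5.29 (SE 0.112, adjusted p = 6.56e-26). Without induction clone 2 was 7.04-fold lower, at -2.81 (SE 0.0792, adjusted p = 1.29e-22), and clone 1 gave -0.03 (SE 0.0697, adjusted p = 0.77). Exons of another gene on the opposite strand covered 3.3% of the exonic bases of *Eln*. The nearest tested genes on its left, *Limk1* and *Eif4h*, had log2 differences of -0.26 and -0.40 in stimulated clone 1 and -0.99 and -0.42 in stimulated clone 2. Those on its right, *Mettl27* and *Gm43372*, had -0.07 and 0.11 in stimulated clone 1 and -0.26 and 0.10 in stimulated clone 2. The median over the 639 genes of chromosome 5 at a mean of 5 CPM or more was -0.23 in stimulated clone 1 and -0.22 in stimulated clone 2.

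The fibrillins form the microfibril backbone, *Fbn1* in adult and developing tissue and *Fbn2* mainly during development. In stimulated cells *Fbn2* was called lower than WT in both KO clones and *Fbn1* in clone 2, and in the clones stimulation itself raised *Fbn1* and lowered *Fbn2*. *Fbn1* (ENSMUSG00000027204, chromosome 2 from 125300594 to 125507993, minus strand) had 936, 717 and 784 CPM in WT uninduced and 3899.9, 4268 and 4144 CPM in WT stimulated libraries. In clone 1 it went from 1011, 888 and 988 CPM to 1752, 2452 and 2187 CPM, and in clone 2 from 447, 443 and 409.8 CPM to 1437, 1635 and 1776 CPM. All stimulated KO libraries lay below all stimulated WT libraries and above every uninduced library. The rise was 5.05-fold in WT, 2.21-fold in clone 1 and 3.73-fold in clone 2. Against stimulated WT the log2 fold change was -1.34 (SE 0.125, adjusted p = 5.88e-07) in clone 2 and -0.95 (SE 0.124, adjusted p = 1.69e-05) in clone 1, the latter just short of the fold threshold. Without replicate 2 of stimulated clone 1 it passed, at -1.06. *Fbn1* stands among the genes that the study drew from these libraries for its epithelial-to-mesenchymal list, so its direction is not independent evidence.

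*Fbn2* (ENSMUSG00000024598, chromosome 18 from 58008623 to 58209926, minus strand) fell on stimulation in both clones. WT libraries held 254, 197 and 222 CPM uninduced and 157, 165 and 166 CPM stimulated. Clone 1 had 246, 237 and 246 CPM uninduced, within the WT range, and 55.6, 68.1 and 57.8 CPM stimulated. Clone 2 had 75.8, 82.2 and 72.2 CPM and then 28.2, 27.1 and 29.7 CPM, so its uninduced libraries were already below all WT libraries. The stimulated difference from WT was -1.42 (SE 0.0765, adjusted p = 2.3e-14) in clone 1 and -2.52 (SE 0.0839, adjusted p = 1.21e-18) in clone 2, or 2.68-fold and 5.74-fold lower. Uninduced, clone 2 gave -1.55 (SE 0.0753, adjusted p = 4.88e-15) and clone 1 0.12 (SE 0.0724, adjusted p = 0.188). The tested genes nearest to *Fbn2* were *Gm26507* and *Slc27a6* on its right and *Slc12a2* and *Ctxn3* on its left. In uninduced clone 2 their log2 differences from WT were -1.28, -3.72, 0.37 and 2.86, and in stimulated clone 2 -2.11, -2.41, 1.55 and 1.87. In clone 1 they were 0.40, -0.98, -0.18 and 2.87 uninduced and -0.60, 0.10, 1.06 and -1.7 stimulated. In the GENCODE annotation exons of *Gm26507*, on the opposite strand, covered 0.976% of the exonic bases of *Fbn2*. Any link of these neighbours with *Fbn2* was not tested. The fibrillins have long transcripts, of 12.128 kb (*Fbn1*) and 10.48 kb (*Fbn2*) in the table. How long genes (at least 8 kb) stood against short ones (1 to 3 kb) varied between libraries of a group, with a median deviation of long minus short genes from -0.141 in replicate 1 of stimulated clone 1 to 0.12 in replicate 1 of WT uninduced. The first of these was the library of its group lowest in *Fbn1* and *Fbn2* and the second the highest, while in both uninduced KO groups the library lowest in *Fbn1* had the larger deviation (0.0233 against -0.0223 in clone 1 and 0.0668 against 0.0159 in clone 2). Its part in the differences between groups was not tested. Between groups the median log2 difference of long genes was 0.024 in stimulated clone 1 and 0.11 in stimulated clone 2. Exons of *Gm9913* on the opposite strand covered 20.1% of the exonic bases of *Fbn1*. *Gm9913* itself had 0 to 20 counts per group over 3 libraries, and the strand setting of the counting is not given in the sources used here.

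Fibulins are calcium-binding glycoproteins that bridge elastin and microfibrils, and the 4 members behaved differently from each other. In stimulated cells *Fbln1* was called lower in both KO clones and *Efemp2* in clone 2, and *Fbln2* and *Fbln5* in neither. *Fbln1* (ENSMUSG00000006369, chromosome 15 from 85205949 to 85286535, plus strand), which binds elastin and basement membrane proteins, was scarce, with 25, 44 and 65 counts in the WT uninduced libraries. Those were 1.46, 2.31 and 2.48 CPM, and the stimulated WT libraries had 2.4, 2.59 and 2.57 CPM. Clone 1 had 1.69, 1.34 and 1.45 CPM uninduced and 0.799, 0.811 and 0.865 CPM stimulated, and clone 2 1.96, 2.13 and 2.2 CPM and 0.84, 0.915 and 0.541 CPM. Stimulated KO libraries all lay under 1 CPM and stimulated WT libraries all above 2 CPM. The difference was -1.60 (SE 0.318, adjusted p = 7.57e-05) in clone 1 and -1.71 (SE 0.334, adjusted p = 6.57e-05) in clone 2, or 3.04-fold and 3.28-fold lower. Uninduced libraries overlapped between clone 2 and WT, with a difference of -0.01 (SE 0.293, adjusted p = 0.988). Like *Fbn1*, *Fbln1* is on the study's epithelial-to-mesenchymal list drawn from these libraries. The 407 genes of chromosome 15 at a mean of 5 CPM or more were shifted the other way, with a median log2 difference of 0.45 in stimulated clone 1 and 0.43 in stimulated clone 2. On the other 7 chromosomes that hold members this median lay from -0.25 to 0.15 in stimulated clone 1 and from -0.22 to 0.18 in stimulated clone 2.

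*Fbln5* (ENSMUSG00000021186, chromosome 12 from 101746565 to 101819055, minus strand), which ties elastin to integrins on the cell and to lysyl oxidase-like enzymes, rose strongly with TGF-β1 + DMII in every genotype. It went from 1091 ± 55.3 CPM (SD, n = 3) to 3793 ± 77.8 CPM in WT, from 731 ± 21 CPM to 3044 ± 86.7 CPM in clone 1 and from 1029 ± 19.1 CPM to 3961 ± 3.91 CPM in clone 2. These are rises of 3.48-fold, 4.17-fold and 3.85-fold. Clone 1 libraries lay below WT in both states, with differences of -0.58 and -0.32 on the log2 scale, short of the fold threshold. Stimulated clone 2 libraries, at 3962, 3957 and 3964 CPM, were above all stimulated WT libraries, at 3859.7, 3812 and 3708 CPM, with a difference of 0.06 (SE 0.0388, adjusted p = 0.179).

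*Fbln2* (ENSMUSG00000064080, chromosome 6 from 91212455 to 91272540, plus strand), a larger fibulin that binds fibrillin-1 and tropoelastin, roughly followed *Fbln5* at a smaller scale. Its WT libraries had 996, 1105 and 1027 CPM uninduced and 2006, 2007 and 1929 CPM stimulated. Clone 1 had 874 ± 16.5 CPM (SD, n = 3) and 1564 ± 8.61 CPM, and clone 2 953 ± 16.2 CPM and 1785 ± 65.6 CPM. The responses were 0.93, 0.84 and 0.90 on the log2 scale in WT, clone 1 and clone 2, each with adjusted p at or under 4.45e-17 and none past the fold threshold. Differences from WT ranged from -0.34 in stimulated clone 1 to -0.13 in uninduced clone 2. In stimulated cells every clone 1 library and every clone 2 library lay below every WT library.

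*Efemp2* (ENSMUSG00000024909, chromosome 19 from 5473973 to 5481853, plus strand) encodes fibulin-4, which brings lysyl oxidase to tropoelastin. Its libraries lay below WT in both clones, with or without stimulation. WT libraries held 211, 226 and 214 CPM uninduced and 173, 180.1 and 174 CPM stimulated. Clone 1 had 129.96, 131 and 128 CPM and 101, 93 and 95.2 CPM, and clone 2 95.1, 91.4 and 95.5 CPM and 56.3, 57.8 and 54.2 CPM. The 3 genotypes did not overlap in either state. Clone 2 passed the fold threshold, at -1.21 (SE 0.0479, adjusted p = 5.27e-19) uninduced and -1.65 (SE 0.0505, adjusted p = 5.97e-22) stimulated. Clone 1 did not, at -0.75 (SE 0.0475, adjusted p = 4.57e-14) and -0.87 (SE 0.048, adjusted p = 9.85e-16). Exons of *Mus81* on the opposite strand covered 4.57% of its exonic bases.

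Sequence upstream of the fibulin genes is shown for 3 members whose differences from WT were described above. The windows are the 250 bases before an annotated start, 5′ to 3′ on the strand of the gene, from RefSeq (build GRCm38.p6), which had a window for 6 of the 10 genes (*Fbn1*, *Fbln1*, *Fbln2*, *Fbln5*, *Emilin1* and *Efemp2*). Those without a window were *Eln*, *Fbn2*, *Mfap4* and *Mfap5*. Capitals mark matches, on either strand, to the SMAD element CAGAC, the forkhead core TGTTTA, the GC box GGGCGG and the CArG box. *Fbln1* and *Fbln5* had 2 windows each and *Efemp2* had 3, for different annotated starts, and the window printed for each gene is the one that overlaps no annotated exon. The *Fbln1* window is chr15:85205699-85205948, plus strand, that of *Fbln5* chr12:101819120-101819369, minus strand, and that of *Efemp2* chr19:5473696-5473945, plus strand.
Fbln1: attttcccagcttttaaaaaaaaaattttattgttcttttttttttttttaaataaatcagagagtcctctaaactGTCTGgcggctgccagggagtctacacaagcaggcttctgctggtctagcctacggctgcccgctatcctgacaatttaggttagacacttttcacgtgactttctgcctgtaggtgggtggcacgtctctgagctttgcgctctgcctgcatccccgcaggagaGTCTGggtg
Fbln5: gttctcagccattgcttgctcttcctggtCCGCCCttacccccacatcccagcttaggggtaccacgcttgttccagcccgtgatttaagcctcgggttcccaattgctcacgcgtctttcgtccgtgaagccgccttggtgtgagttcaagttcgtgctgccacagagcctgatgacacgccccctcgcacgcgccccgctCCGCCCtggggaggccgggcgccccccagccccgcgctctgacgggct
Efemp2: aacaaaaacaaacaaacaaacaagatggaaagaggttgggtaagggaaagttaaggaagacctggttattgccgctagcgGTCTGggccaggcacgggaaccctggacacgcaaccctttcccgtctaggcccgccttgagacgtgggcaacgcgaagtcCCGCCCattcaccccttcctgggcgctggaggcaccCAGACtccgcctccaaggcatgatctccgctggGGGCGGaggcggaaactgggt
The printed *Fbln1* window held 2 SMAD elements and 0 GC boxes, that of *Fbln5* 0 and 2, and that of *Efemp2* 2 and 2. The counts depended on the start chosen: the other window held 2 SMAD elements and 1 GC box for *Fbln1* and 2 and 0 for *Fbln5*, and both other windows of *Efemp2* held 0 and 5. The windows of *Fbn1* and *Fbln2* held 0 SMAD elements and 1 GC box each, and that of *Emilin1* 2 and 0. Unlike the printed windows, those of *Fbn1*, *Fbln2* and *Emilin1* overlapped annotated exons. No window of a member held the forkhead core TGTTTA or a CArG box. Only this string was searched for, so other forms of the forkhead motif may be present. Of all 32851 windows of this length, 42.2% held a SMAD element, 12.0% a forkhead core, 32.7% a GC box and 1.47% a CArG box. A match is a string of letters and not a binding site.

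*Mfap4* and *Mfap5* encode microfibril-associated proteins, and both were called lower than WT in stimulated cells of both clones. *Mfap4* (ENSMUSG00000042436, chromosome 11 from 61485431 to 61488900, plus strand), a secreted protein of the fibrinogen-related family that binds elastin and fibrillin, had 5.47, 3.41 and 5.72 CPM in WT uninduced and 6.85, 8.29 and 8.88 CPM in WT stimulated libraries. Clone 1 held 5, 6 and 4 counts uninduced and 16, 25 and 22 counts stimulated, or 0.256, 0.322 and 0.207 CPM and 0.852, 0.922 and 1 CPM. Clone 2 held 27, 9 and 13 counts and then 3, 7 and 0 counts, and the count of 0 allows a level of up to 0.18 CPM in that library. KO libraries reached 1.00 CPM at most, and every WT library lay above 3 CPM. Without induction the differences from WT were -4.19 (SE 0.406, adjusted p = 4.78e-10) in clone 1 and -3.06 (SE 0.342, adjusted p = 8.07e-09) in clone 2. Under stimulation they were -3.10 (SE 0.323, adjusted p = 1.44e-09) and -5.27 (SE 0.426, adjusted p = 7.34e-12). The last value was -6.44 without stimulated clone 2 replicate 2 and -4.69 without stimulated clone 2 replicate 3. The counts in the clones are so few that these folds are imprecise, and the limit for the count of 0 covers counting error only. Exons of *Mapk7* on the opposite strand covered 4.63% of the exonic bases of *Mfap4*.

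*Mfap5* (ENSMUSG00000030116, chromosome 6 from 122505845 to 122529290, plus strand), also called MAGP-2, binds fibrillins and Notch ligands. It separated the clones. WT libraries had 16.8, 19.4 and 20.5 CPM uninduced and 38, 39.3 and 43.6 CPM stimulated. Clone 1 had 15.7, 16.1 and 14.8 CPM uninduced, all below WT, and 8.63, 9.44 and 6.83 CPM stimulated. Clone 2 libraries held only 7, 5 and 1 counts uninduced and 8, 5 and 7 counts stimulated, never above 0.5 CPM. In clone 1 the difference from WT was -0.29 (SE 0.118, adjusted p = 0.0414) uninduced, which is under the fold threshold, and -2.27 (SE 0.12, adjusted p = 3.2e-16) stimulated. In clone 2 it was -6.90 (SE 0.218, adjusted p = 2.14e-21) and -6.63 (SE 0.196, adjusted p = 2.41e-22), or 119-fold and 98.9-fold lower. The 4 tested genes nearest to *Mfap5* on both sides had log2 differences from -0.35 to -1.22 in uninduced clone 2. In uninduced clone 1 theirs were from -0.22 to -0.88. Under stimulation they were from -0.07 to -0.83 in clone 2 and from -0.435 to 0.64 in clone 1. Any link of these values with *Mfap5* was not tested.

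*Emilin1* (ENSMUSG00000029163, chromosome 5 from 30913402 to 30921277, plus strand), an elastin microfibril interfacer that sits between the core and its coat, was called in none of the comparisons. Its 3 WT uninduced libraries had 507, 508 and 511 CPM and the stimulated ones 815, 867 and 818 CPM. Clone 1 had 592 ± 21.3 CPM (SD, n = 3) and 799.6 ± 28.7 CPM, and clone 2 519.6 ± 21.9 CPM and 818 ± 39.8 CPM. Stimulated libraries of the 3 genotypes overlapped, with differences from WT of -0.06 (SE 0.0445, adjusted p = 0.257) in clone 1 and -0.03 (SE 0.0446, adjusted p = 0.655) in clone 2. Uninduced clone 1 was above WT by 0.22 (SE 0.0448, adjusted p = 0.000138), short of the fold threshold.

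**Figure D2:**
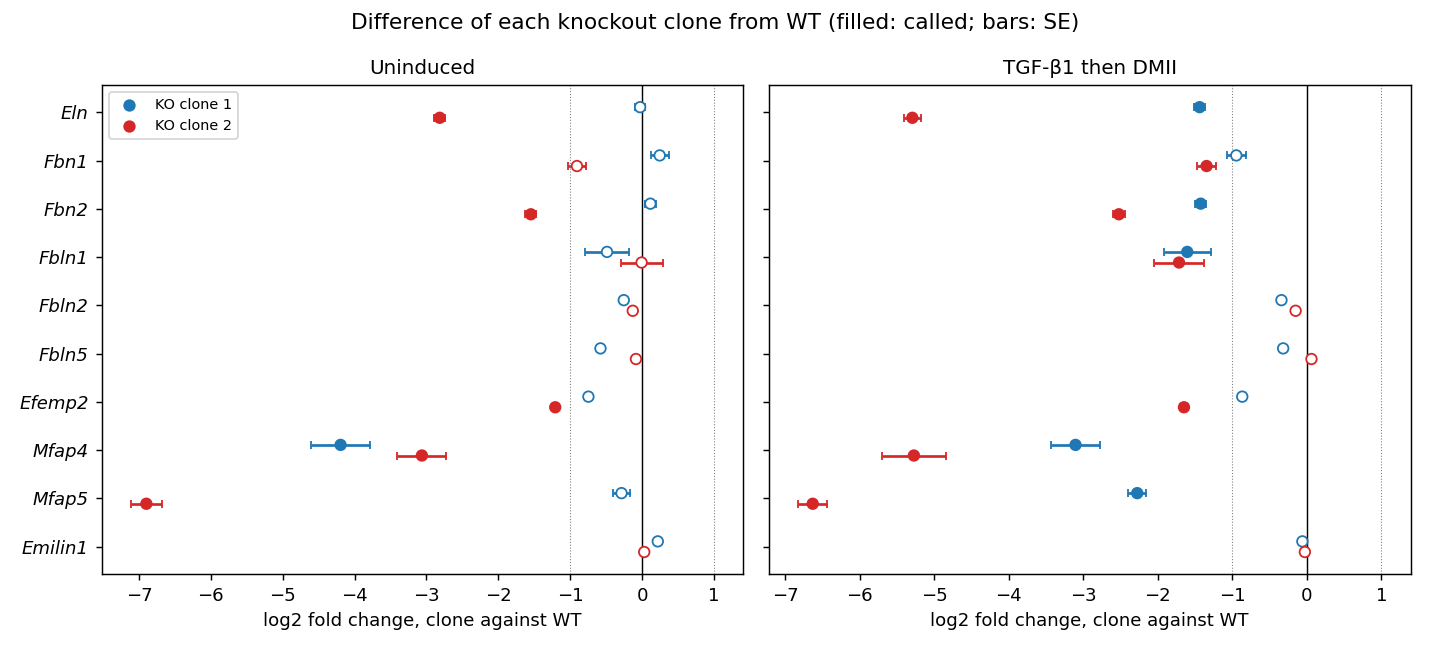
log2 fold change of KO clone 1 and KO clone 2 against WT (x axis) for the 10 genes (y axis), uninduced on the left and after TGF-β1 + DMII on the right, with SE bars, filled symbols for called genes and dotted lines at 1 and -1. Under stimulation the called genes lay between -1.35 and -6.63, and *Fbln2*, *Fbln5* and *Emilin1* between -0.34 and 0.06.

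Each genotype's own response set stimulated against uninduced libraries. In WT 3 of the 10 genes were called higher, *Fbn1*, *Fbln5* and *Mfap5*, and none was called lower, where 6.25% of all genes were called higher and 13.6% lower. At any fold change, 60.7% of all genes tested had an adjusted p below 0.05 in WT. Beside the 3 called, another 6 of the 10 genes had an adjusted p below 0.05 without reaching the fold threshold. Of these *Fbln2*, *Emilin1* and *Mfap4* were higher, at 0.93, 0.71 and 0.71 on the log2 scale, and *Fbn2*, *Eln* and *Efemp2* lower, at -0.46 (SE 0.0729, adjusted p = 5.31e-06), -0.34 (SE 0.0699, adjusted p = 0.000118) and -0.30 (SE 0.0468, adjusted p = 1.74e-06). In clone 1 *Fbn1*, *Fbln5* and *Mfap4* were called higher and *Eln* and *Fbn2* lower, against 5.95% and 10.7% of all genes. In clone 2 *Fbn1*, *Fbln5* and *Mfap5* were called higher and *Eln*, *Fbn2*, *Fbln1* and *Mfap4* lower, against 6.46% and 11.2%. The median log2 response was 0.71 over the 10 genes and -0.0361 over all genes tested in WT, 0.00445 over the 10 genes and -0.0227 over all genes tested in clone 1 and -0.0446 over the 10 genes and -0.0204 over all genes tested in clone 2. *Eln* had -0.34 in WT, -1.75 in clone 1 and -2.82 in clone 2 on this scale, and *Fbn2* -0.46, -2.00 and -1.44. The *Mfap4* and *Mfap5* calls in clone 2 rest on few counts. The fall of *Mfap4*, at -1.49 (SE 0.548, adjusted p = 0.0216), lost its call without replicate 1 or 3 of either clone 2 group, and was -0.90 without stimulated replicate 3. It was -2.65, and still called, without stimulated replicate 2. The other values were -1.45 and -1.35 without uninduced replicates 1 and 3, and -1.35 without stimulated replicate 1. The rise of *Mfap5*, at 1.36 (SE 0.461, adjusted p = 0.0136), had an adjusted p of 0.0537 without stimulated replicate 1.

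**Figure D3:**
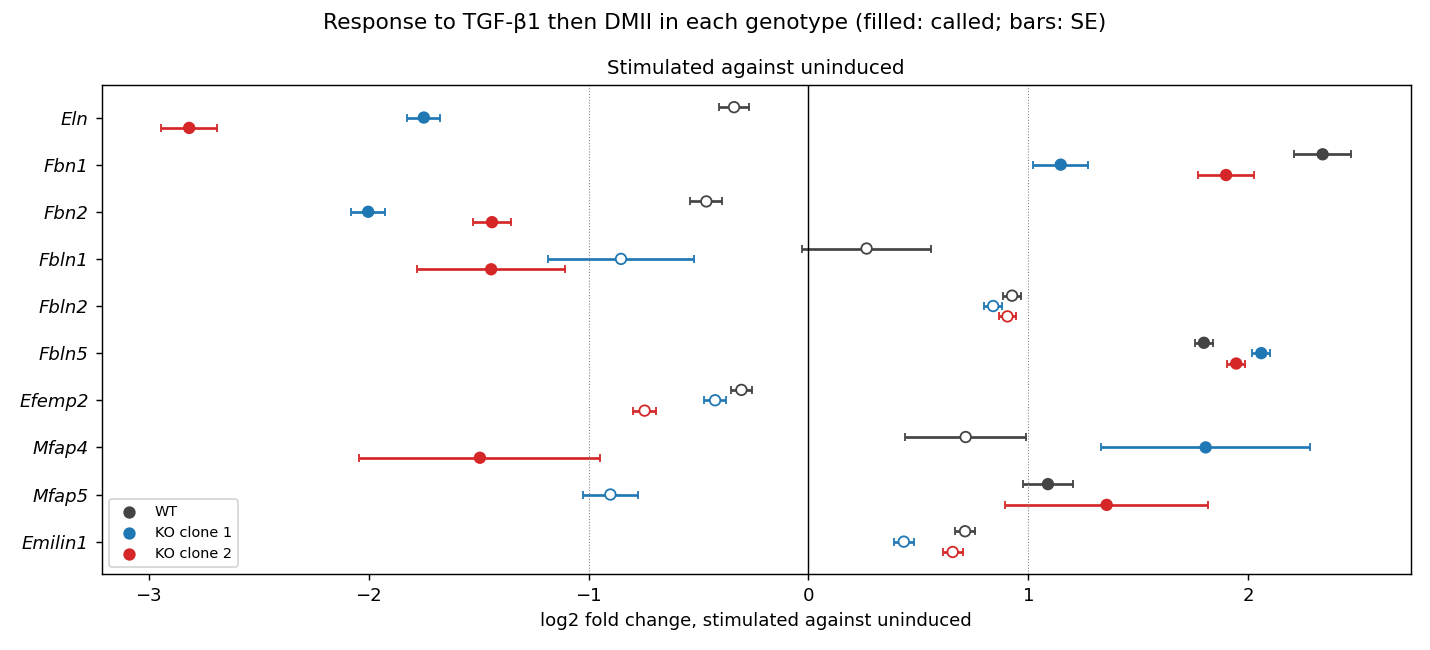
log2 fold change of stimulated against uninduced libraries (x axis) for the 10 genes (y axis) in WT, KO clone 1 and KO clone 2, with SE bars, filled symbols for called responses and dotted lines at 1 and -1. *Fbln5* rose by 1.80 to 2.06 in every genotype, while *Eln* ranged from -0.34 in WT to -2.82 in clone 2.

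Whether a response differed between genotypes was tested as an interaction. In clone 1, the response of 4 of the 10 genes was called lower than in WT (less of a rise or more of a fall) and none higher, where 3.46% of all genes were called lower and 5.34% higher. These were *Eln* at -1.41 (SE 0.102, adjusted p = 1.9e-12), *Fbn1* at -1.19 (SE 0.175, adjusted p = 0.00013), *Fbn2* at -1.54 (SE 0.105, adjusted p = 1.04e-11) and *Mfap5* at -1.99 (SE 0.168, adjusted p = 5.85e-11). In clone 2, 3 of 10 were called lower and none higher, against 2.96% and 4.89%. They were *Eln* at -2.48 (SE 0.151, adjusted p = 5.42e-14), *Fbln1* at -1.71 (SE 0.447, adjusted p = 0.00351) and *Mfap4* at -2.21 (SE 0.61, adjusted p = 0.00557). Without stimulated clone 2 replicate 2 the *Mfap4* value was -3.38, and without stimulated clone 2 replicate 3 -1.63, called both times. *Eln* was the gene called in both. *Mfap5* in clone 2, at 0.27 (SE 0.437), and *Mfap4* in clone 1, at 1.09 (SE 0.556), rest on few counts. The missing call for these does not show a response equal to that of WT. *Fbn2* in clone 2 missed the fold threshold, at -0.97 (SE 0.111, adjusted p = 1.39e-07), and passed it without any 1 of 4 libraries, at -1.07 without uninduced WT replicate 1, -1.001 without stimulated WT replicate 1, -1.02 without uninduced clone 2 replicate 3 and -1.01 without stimulated clone 2 replicate 3. *Fbln1* in clone 1 gave -1.12 (SE 0.443, adjusted p = 0.0545), and passed at -1.19, -1.27 and -1.12 without uninduced WT replicate 2, uninduced WT replicate 3 and stimulated clone 2 replicate 3. The medians were -0.70 over the 10 genes and -0.00667 over all genes tested in clone 1, and -0.44 over the 10 genes and -0.00768 over all genes tested in clone 2. The 2 differences share the WT libraries.

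The clones themselves differed. In uninduced cells 4 of the 10 genes were called higher in clone 1 than in clone 2 and none lower, where 4.89% of all genes were called higher and 3.78% lower. These were *Mfap5* at 6.61 (SE 0.223, adjusted p = 2.92e-20), *Eln* at 2.79 (SE 0.0793, adjusted p = 5.19e-22), *Fbn2* at 1.66 (SE 0.0755, adjusted p = 3.1e-15) and *Fbn1* at 1.15 (SE 0.125, adjusted p = 5.52e-06). In stimulated cells 4 were called higher, *Mfap5* at 4.35, *Eln* at 3.85, *Mfap4* at 2.17 and *Fbn2* at 1.10, against 5.5% of all genes called higher and 4.48% lower. The stimulated *Mfap4* value was 3.34 without stimulated clone 2 replicate 2 and 1.59 without stimulated clone 2 replicate 3. *Mfap4* in uninduced cells, at -1.13 (SE 0.499, adjusted p = 0.07), was called without uninduced clone 2 replicate 2, at -1.32, and without stimulated clone 2 replicate 3, at -1.13. The medians were 0.33 over the 10 genes and 0.00418 over all genes tested uninduced and 0.59 over the 10 genes and 0 over all genes tested stimulated.

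Per kb of gene length, *Fbln2* and *Fbln5* had the highest levels of the 10 genes in WT uninduced cells, at 164 ± 8.86 and 158 ± 8.01 CPM per kb, and their libraries overlapped. *Emilin1* followed at 103 ± 0.437, then *Efemp2* at 82 ± 2.81, *Fbn1* at 67 ± 9.25, *Fbn2* at 21.4 ± 2.71 and *Eln* at 12.9 ± 0.976 CPM per kb. *Mfap5* at 5.26 ± 0.534, *Mfap4* at 2.53 ± 0.66 and *Fbln1* at 0.476 ± 0.125 CPM per kb were lowest, and none of these overlapped with its neighbour in the order. Gene length is that of the table, which for *Efemp2* (2648 bases) and *Fbn2* (10480 bases) is shorter than the exonic sequence in the GENCODE annotation (3788 and 13215 bases). With the latter, an alternative chosen after seeing the data, *Efemp2* had 57.3 ± 1.97 CPM per kb in WT uninduced libraries, below *Fbn1* and overlapping with it, and the ranks in the other 5 groups did not change. In WT stimulated cells the order led with *Fbln5* at 549 ± 11.3, *Fbn1* at 338 ± 15.4 and *Fbln2* at 311 ± 6.96 CPM per kb. In clone 2 *Mfap5* ranked last when uninduced, at 0.0405 ± 0.0229 CPM per kb, and *Fbln1*, *Mfap5* and *Mfap4* overlapped at the bottom when stimulated. The summed level of the 10 genes was 4027 ± 112 CPM in WT uninduced and 11183 ± 213 CPM in WT stimulated libraries (SD, n = 3). It was 3652 ± 59.1 and 7736 ± 264 CPM in clone 1, and 3123 ± 17.5 and 8268 ± 85.4 CPM in clone 2.

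The makeup of this output changed with the treatment and the genotype. Per length, *Eln* amounted to 19.6% ± 3.44 of *Fbn1* in WT uninduced libraries and to 3.03% ± 0.205 in WT stimulated libraries (SD, n = 3). In clone 1 it was 16.0% ± 0.744 and 2.21% ± 0.557, and in clone 2 5.10% ± 0.179 and 0.198% ± 0.0619. *Fbn2* relative to *Fbn1* on the same scale went from 32.0% ± 0.748 to 4.59% ± 0.107 in WT, from 29.3% ± 1.42 to 3.32% ± 0.318 in clone 1 and from 20.5% ± 0.939 to 2.04% ± 0.198 in clone 2. With the GENCODE exonic bases these values were 25.4% and 3.64% in WT, 23.2% and 2.63% in clone 1 and 16.3% and 1.62% in clone 2. Stimulated libraries thus had little elastin and fibrillin-2 message beside fibrillin-1 in all 3 genotypes, and least in clone 2.

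**Figure D4:**
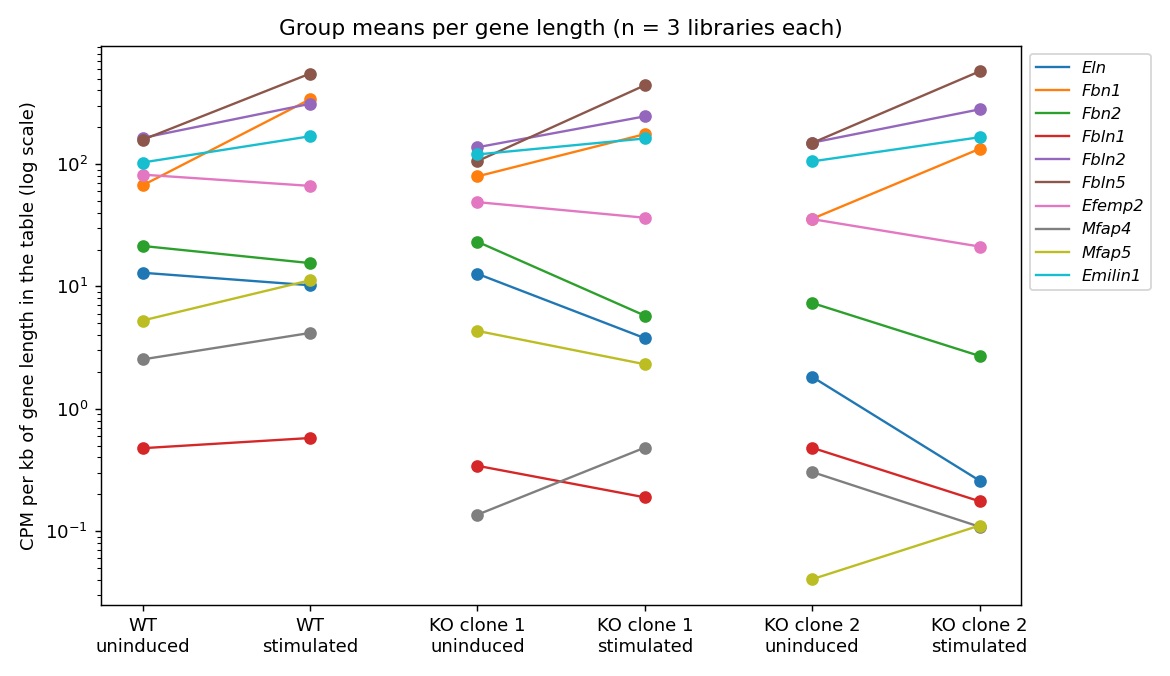
Group means of the 10 genes in CPM per kb of gene length (y axis, log scale) in the 6 groups (x axis), with a line joining the uninduced and stimulated groups of each genotype and 3 libraries per point. *Fbln5* stood highest in each stimulated group, at 549, 440.5 and 573 CPM per kb, and *Eln* ended at 0.258 CPM per kb in clone 2.

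The genes whose pattern was most like that of each member were found among 10059 genes whose mean was 5 CPM or more. The measure was the root mean square difference of the 6 centred group means on the log2 scale, so 0 is identity. *Fbln5* lay closest to *Ltbp2* at 0.093, *Fbn1* to *Cyr61* at 0.222 and *Eln* to *Flrt3* at 0.283. *Ltbp2* encodes a microfibril protein of the family named latent TGF-β binding proteins, a name that does not state what each member binds. *Fbn2* was nearest to *Cdc42ep5* at 0.231, *Fbln1* to *Zfp354c* at 0.226, *Fbln2* to *Dnajb6* at 0.0672, *Efemp2* to *Dhrs4* at 0.0716 and *Emilin1* to *Ctif* at 0.0373. The genes nearest to *Mfap4* and *Mfap5* were farther off, *Fzd3* at 0.522 and *Tmtc1* at 0.502. Among the 10 genes, *Fbln2* and *Emilin1* were the most alike pair at 0.216, followed by *Fbln1* and *Efemp2* at 0.438, and *Eln* and *Fbn2* differed by 1.01. The groups share libraries and genotype, and no test was made of these distances.

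Of 44 other genes of elastic fibre and microfibril biology 38 were tested, and calls went in both directions. In stimulated clone 1 6 were called higher and 8 lower than in WT, beside 9.42% and 9.6% of all genes tested, and in stimulated clone 2 8 higher and 7 lower, beside 7.95% and 8.94%. The lowest called in clone 1 were *Adamts17*, a metalloprotease linked to microfibrils, and *Ltbp4*, which binds latent TGF-β and fibulin-5, at a log2 fold change of -5.73. *Adamts17* had 606 counts over the WT stimulated libraries and 3 over those of clone 1, 208-fold lower per depth, with an exact 95% interval of 71 to 1013 for counting error alone. *Ltbp4* was the lowest in clone 2 as well, at -7.50, with 33.8 ± 2.08 CPM (SD, n = 3) in WT, 0.605 ± 0.255 CPM in clone 1 and 0.184 ± 0.215 CPM in clone 2. *Efemp1*, the gene for fibulin-3, had 47 counts over the WT stimulated libraries and 0 counts over those of clone 2, so it was at least 11.8-fold lower there against a floor of 3 counts over the group. The highest called were *Adamtsl4* at 3.12 and *Mmrn2* at 1.91 in clone 1, and *Loxl4*, a lysyl oxidase, at 2.46 and *Adamtsl5* at 1.71 in clone 2. In uninduced cells 4 were called higher and 9 lower than WT in each clone, beside 6.32% and 8.73% of all genes in clone 1 and 5.54% and 9.56% in clone 2. In the WT response 8 were called higher and 11 lower, beside 6.25% and 13.6%, with *Adamtsl2* at 5.95 and the elastolytic protease *Ctsl* at 2.88 at the top and *Efemp1* at -4.83 and *Mfap2* at -4.76 at the bottom. *Mfap2* encodes MAGP-1, the relative of *Mfap5*.

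Markers of other cell types also differed between the groups. The 7 smooth muscle and myofibroblast markers summed to 1984 to 2138 CPM in WT stimulated libraries, but to 305 to 319 CPM in clone 1 and 299 to 339 CPM in clone 2, and *Myocd* had no count in any stimulated group. *Acta2*, the gene for smooth muscle actin, made up nearly all of these sums, with means of 2036, 308 and 323 CPM. A mean of 1 CPM was reached by 2 of the 7 markers in the WT and clone 1 stimulated groups and by 1 in that of clone 2. Among 5 tested, 1 was called higher and 2 lower in each clone. In uninduced libraries the sum was 265 to 304 CPM in WT, 421 to 434 CPM in clone 1 and 195 to 206 CPM in clone 2. The 7 adipocyte markers summed to 4.16 to 4.97 CPM in WT stimulated libraries, 30.9 to 43.2 CPM in clone 1 and 6.13 to 8.24 CPM in clone 2. Of these 5 were tested, and 4 were called higher and 1 lower in clone 1, and 2 higher in clone 2. In uninduced libraries the order was another, with sums of 30.5 to 35.4 CPM in WT, 1.38 to 2.28 CPM in clone 1 and 7.17 to 8.81 CPM in clone 2. *Lep* and *Cfd* had no count in any stimulated group, and *Adipoq* and *Plin1* had none in WT. The 5 cartilage markers summed to 1106 to 1254 CPM in WT stimulated libraries, 1436 to 1545 CPM in clone 1 and 2504 to 2684 CPM in clone 2, and the 4 bone markers to 9.41 to 19.6 CPM over the 3 groups. Endothelial markers summed to at most 0.391 CPM, macrophage markers to at most 1.02 CPM and epithelial markers to at most 0.293 CPM in the stimulated groups. Without induction, endothelial markers summed to 5.03 to 7.92 CPM in WT. In uninduced clone 1 and clone 2 they summed to 0.359 to 0.828 CPM and 0.531 to 0.758 CPM. Macrophage markers summed to at most 1.68 CPM and epithelial markers to at most 3.52 CPM in the uninduced groups. The part of these shifts in the values of the 10 genes was not tested.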

How the data were processed

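The deposited table held raw counts of reads per gene for 18 libraries, with no normalization by the authors. Per the labels and the study's methods, poly(A) libraries were sequenced as read pairs and aligned with HISAT2 to GRCm38/mm10. For the read counter, the gene annotation release and strandedness, the entry is: not given in the sources used here. All 18 count columns were matched to the labels, and no per-sample column was left over. Library totals limit the precision of scarce genes (*Fbln1*, *Mfap4*, *Mfap5*), and the limits that a count of 0 allows (3 counts) cover counting error only.

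From the counts, edgeR 4.0.16 in R 4.3.3 fitted 1 model with a mean for each of 6 groups over the 14317 genes kept by filterByExpr (minimum count 10), with TMM scaling and the robust quasi-likelihood test. SEs are the absolute log2 fold change divided by the square root of F. Benjamini-Hochberg adjustment ran over all genes tested. Calls needed an adjusted p under 0.05 together with a change of more than 1 on the log2 scale in either direction. The fitting was tested on simulated data. Pairs of replicates differed by more than counting noise. Figures were drawn with matplotlib 3.10.9 and log2 levels used a prior count of 2.

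The 10 genes, the lists of other genes and the markers were chosen with earlier results of these data known. All 10 genes were named with values, *Foxs1* as the targeted gene, and, of the other elastic fibre genes, the 2 called genes with the largest and the 2 with the smallest log2 fold change in the WT response and in each stimulated KO comparison. Neighbouring genes, *Gm9913*, the genes nearest in pattern and single markers were named beside the result they touch, after their values were seen. Alternatives were size-factor scaling, DESeq2 1.42.0, other filters, other thresholds, a fit on only the groups compared, a replicate block and leaving out each library, and, added after seeing the data, exonic bases of the GENCODE annotation as gene length.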

Additional observations from a re-analysis of the deposited data

Results flagged for a closer look

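The interaction test, which asks whether a response to TGF-β1 + DMII differed between a FOXS1 KO clone and WT, was past both thresholds for 7 of the results on the 10 genes (quasi-likelihood F test in edgeR, p adjusted by Benjamini-Hochberg). In clone 1 the log2 response of *Eln* differed from that of WT by -1.41, that of *Fbn1* by -1.19, that of *Fbn2* by -1.54 and that of *Mfap5* by -1.99. In clone 2 the difference was -2.48 for *Eln*, -1.71 for *Fbln1* and -2.21 for *Mfap4*. In WT *Mfap5* rose by 1.09 on the log2 scale, where clone 1 gave -0.90. For *Fbln1* the WT value was 0.26 and that of clone 2 -1.44, and for *Mfap4* they were 0.71 and -1.49.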

How the results depend on the processing

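Of 2857 values of the 10 genes recomputed under another setting, 2775 kept their direction and their side of the thresholds, 18 lost a call, 51 gained one and 13 changed sign. Each library was left out for every comparison, so many of these values dropped a library outside the comparison. Such values can change only through the shared filter, scaling and estimate of spread, and say little about stability. Without the fold threshold the number of the 10 genes called was 9 in the WT response and 10 in the clone 1 response. Of all genes tested, 60.7% and 54.5% had an adjusted p below 0.05 in these responses. For clone 1 against WT the number was 6 uninduced and 9 stimulated, beside 53.5% and 58.9% of all genes. Between the clones it was 8 in each state, beside 42.2% of all genes uninduced and 45.4% stimulated. For the difference in response of clone 2 the number was 6, beside 31.2%. With the fold threshold inside the test (glmTreat) it was 3 in the clone 1 response, 4 in the clone 2 response, 2 between stimulated clones and 1 for the difference in response of clone 2. It took 1 call each from the WT response (*Mfap5*), from clone 1 against WT stimulated (*Fbln1*), and, for *Fbn1*, from the comparison of uninduced clones and the difference in response of clone 1, leaving 2, 4, 3 and 3. Lower counts under this stricter test and higher ones without the threshold are by construction. *Fbln1* in uninduced clone 2 against WT was -0.0063 and changed sign to 0.0366 with no filter and to 0.00168 with only the groups compared. Leaving out 1 library at a time gave -0.198 to 0.148 for it. The same gave ranges crossing 0 for *Eln* in uninduced clone 1 (-0.0821 to 0.0279), *Emilin1* in stimulated clone 2 (-0.0509 to 0.0165), *Emilin1* and *Fbln1* between stimulated clones (-0.0725 to 0.00565 and -0.0854 to 0.252) and *Fbln2* in the difference in response of clone 2 (-0.0704 to 0.0078). None of these 6 values was called, and the cause was not tested. With only the groups compared, *Mfap4* and *Mfap5* in the clone 2 response and *Mfap4* between uninduced clones fell under the filter and gave no value. DESeq2 size factors moved the median of all genes by at most 0.0147.

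The replicate numbers did not pair the libraries: of 45 same-numbered pairs across groups 0 had deviations correlated over 0.1 (-0.0412 to 0.0498). With the replicate block the number of the 10 genes called was the same in all 11 comparisons, 3, 5 and 7 in the responses of WT, clone 1 and clone 2, for instance, and *Fbln1* in uninduced clone 2 was 0.00481. Of the 30 nearest genes in pattern 23 were kept when genes down to a mean of 1 CPM were considered. Depth limits what can be said of *Fbln1*, *Mfap4* and *Mfap5*, which had few counts in the KO clones.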
